A study of Mus musculus with 6 samples.

Results

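The core clock loop is described here through 10 genes, taken by name from the textbook loop: the activators Arntl (which encodes BMAL1), Clock and Npas2, the repressors Per1, Per2, Per3, Cry1 and Cry2, and the kinases Csnk1d and Csnk1e. All 10 were found by symbol among the 55487 genes counted. RNA was sequenced from 6 cultures of mouse cortical microglia, the resident macrophages of the brain, 3 Cre- and 3 Cre+. All 6 cultures came from a CAG::CreERT2; Nr1d1 fl/fl breeding, in which both groups carry the floxed alleles of Nr1d1, the gene of the nuclear receptor REV-ERBα, and in which Cre+ cells alone carry the tamoxifen-inducible recombinase. The study's methods give C57/Bl6J as the background of the Cre line and pups of postnatal days 1 to 3 as the source. Both groups received 1.5 µM 4-hydroxytamoxifen (4-OHT) for 2 days per the labels, so the drug itself does not separate the groups. The CAG promoter is active in most cell types, so it does not limit recombination to microglia, and the cells were taken from mixed glial cultures. Neither the time of day at harvest nor a synchronization of the cultures is given in the sources used here, and each culture was read once. The values are therefore levels at 1 time point of unknown clock phase, not amplitudes or periods.

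BMAL1 pairs with CLOCK, or with its paralog NPAS2, and the pair activates genes through E-box sequences, among them the Per and Cry genes. PER and CRY proteins return to the nucleus and inhibit the pair, and casein kinases 1δ and 1ε, the products of Csnk1d and Csnk1e, phosphorylate PER and so set its turnover. In a second loop REV-ERBα and REV-ERBβ (Nr1d2) repress Arntl through elements called RREs, which ROR receptors use to activate it, while D-box sequences are read by DBP, TEF and HLF and repressed by NFIL3.

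The promoter stretches below hold matches, in capitals, to the letters of the RRE, E-box and D-box sequences described above. They are from RefSeq on GRCm38.p6, which holds 15 windows for 8 of the 10 members, each running from 250 bases before to 50 after an annotated start site. Per2 and Csnk1d had no window. The RRE letters searched were AGTAGGTNA, TAGGTCA and TGGGTCA, on both strands, of which the first was chosen after the Arntl window had been seen and overlaps the second. AGTAGGTNA matched in 0.591% of all 32851 windows, TAGGTCA in 2.61% and TGGGTCA in 3.98%. Among the members AGTAGGTNA matched in the Arntl windows, in 2 places that lie around the annotated starts, TAGGTCA matched inside the second of these, and TGGGTCA matched in no member window:
Arntl, chr7:113207493-113207521, plus strand: ttggtcggaaAGTAGGTTAgtggtgcgac
Arntl, chr7:113207529-113207557, plus strand: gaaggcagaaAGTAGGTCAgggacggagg

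The E-box CACGTG matched in 7.15% of all windows and the related E'-box CACGTT in 4.68%. Cry1 held both within 1 stretch upstream of its start, Per1 held an E-box and Cry2 an E'-box, and both E'-boxes lie on the opposite strand and so read AACGTG here:
Cry1, chr10:85185099-85185143, minus strand: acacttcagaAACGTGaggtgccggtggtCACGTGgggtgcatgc
Per1, chr11:69098773-69098798, plus strand: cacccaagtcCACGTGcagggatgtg
Cry2, chr2:92434220-92434245, minus strand: acatggtgggAACGTGagggggcgga

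The D-box TTANGTAA matched in 2.32% of all windows, and 2 times in the window of Per3:
Per3, chr4:151044806-151044880, minus strand: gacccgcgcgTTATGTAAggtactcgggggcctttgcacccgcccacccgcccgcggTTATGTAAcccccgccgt
The cAMP response element TGACGTCA, found in 1.79% of all windows, was in no member window, and none of these letters matched in the windows of Clock, Npas2 and Csnk1e. A match describes the letters of a window and is not evidence that a factor was bound there.

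Library totals ran from 87545868 to 110909129 counts, and 32587 to 35166 genes had a count in Cre- against 29941 to 30677 in Cre+ cultures. Levels are given as CPM, counts per 1000000 of the TMM-scaled library size, for comparisons within a gene. The targeted gene Nr1d1 (chromosome 11, 98767932 to 98775333, minus strand) stood at 2.35, 1.20 and 1.64 CPM in the Cre- and at 1.00, 0.945 and 1.08 CPM in the Cre+ cultures. Every Cre+ culture was below every Cre- culture, with a log2 fold change of -0.77 (SE 0.25, 95% interval -1.31 to -0.24), yet edgeR's quasi-likelihood test gave an adjusted p of 0.0945. Without Cre- replicate 2 the log2 fold change was -0.98 with an adjusted p of 0.0414, and without Cre- replicate 1 it was -0.50 with 0.313. The count of Nr1d1 also takes in exons outside the floxed ones, and 263 of its exonic bases overlap Thra on the opposite strand. Of 12 microglia markers Trem2 was the most abundant at 1615 CPM, while P2ry12, Sall1 and Siglech, markers of microglia in the intact brain, were at 1.03 CPM or less in every library. The summed level of the 12 was 3296 to 3341 CPM in Cre- and 3304 to 3432 CPM in Cre+ cultures. Markers of other cells summed to 44.3 to 48.2 CPM in Cre- and 42.6 to 48.6 CPM in Cre+ for astrocytes, 83.7 to 92.8 and 80.9 to 85.7 for the oligodendrocyte lineage, 2.43 to 3.31 and 1.94 to 2.10 for neurons, and 20.9 to 22.9 and 24.4 to 27.9 for endothelial cells. Of the markers tested, 2 passed in edgeR, both higher in Cre+: Flt1 of the endothelial list (log2 fold change 0.33, adjusted p = 0.0245) and Itgam of the microglia list (0.18, adjusted p = 0.0463). Of the astrocyte list, Gfap and Aqp4 were at 0.398 CPM or less in every library, while Aldoc and Aldh1l1 averaged 32.2 and 11.9 CPM. No marker of any list was at 0 in all libraries. In bulk RNA fewer cells of a type and less RNA per cell cannot be told apart.

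None of the 9 members tested passed an adjusted p of 0.05 in edgeR's quasi-likelihood test between Cre+ and Cre- cultures. The background was 5.07% of the 11429 genes tested, 2.50% higher and 2.56% lower in Cre+. At an unadjusted p of 0.05, Per2 alone was past the threshold, in edgeR, in limma's voom with and without quality weights and in DESeq2, and each of these tools called 0 members after adjustment. The groups did not overlap in 1 of the 9, Per1, against 24.0% of all genes tested. The median log2 fold change of the 9 was 0.05, that of all genes 0.0023, and the median size of the change was 0.11 in both. The plot of CPM by culture shows all 10.

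**Figure D1:**
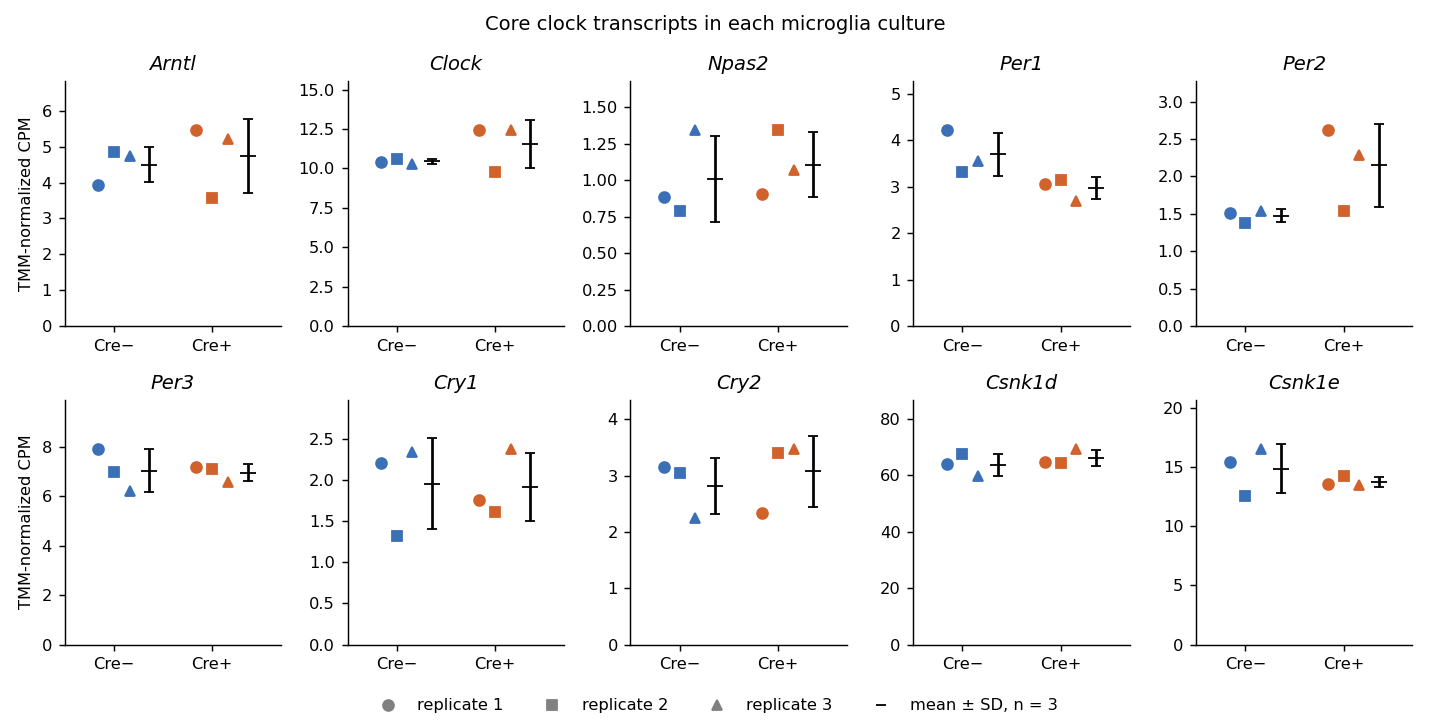
CPM of each core clock gene in each culture, Cre- (blue) and Cre+ (orange), with the mean ± SD of 3 cultures as black bars and each axis starting at 0. Per1 is the one gene of the 10 whose groups do not overlap, and Per2 is higher in Cre+ replicates 1 and 3 but not in replicate 2.

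The activators overlapped between the groups. Arntl, whose product is BMAL1, was at 3.93, 4.85 and 4.73 CPM in Cre- and at 5.47, 3.57 and 5.22 CPM in Cre+ cultures. The Cre+ cultures held both the highest and the lowest Arntl value of the 6. The log2 fold change was 0.08 (SE 0.17, 95% interval -0.29 to 0.45, adjusted p = 0.87 with edgeR), which as a ratio spans 0.818 to 1.36. Clock, the partner that also has acetyltransferase activity, was at 10.4, 10.6 and 10.3 CPM in Cre- and at 12.4, 9.78 and 12.4 CPM in Cre+ cultures. Here the coefficient of variation was 1.50% in the Cre- cultures, below the counting error of 3.27% expected from their counts, and 13.3% in the Cre+ cultures. Its log2 fold change was 0.14 (SE 0.11, 95% interval -0.10 to 0.39, adjusted p = 0.54). Npas2, the paralog that can stand in for CLOCK, exceeded 1 CPM in 3 of the 6 libraries and was not tested, since the filter asked for 4 of them. Its counts were 77, 73 and 120 in Cre- and 99, 125 and 108 in Cre+ cultures, or 1.01 ± 0.295 and 1.11 ± 0.222 CPM (SD, n = 3). The groups overlapped here too, and the log2 ratio of their means was 0.14. Under the 3 looser filters the log2 fold change of Npas2 was 0.13 to 0.21 with adjusted p of 0.73 to 0.85.

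Of the PER genes, Per1 and Per2 had estimates of opposite sign, Per3 one near 0, and none of the 3 passed the test. Per1, the member that responds to light and to cAMP in the brain's central clock, was at 4.22, 3.32 and 3.54 CPM in Cre- and at 3.07, 3.15 and 2.70 CPM in Cre+ cultures. Each Cre+ culture was below each Cre- culture, by a small margin between Cre- replicate 2 and Cre+ replicate 2. The log2 fold change was -0.31 (SE 0.17, 95% interval -0.67 to 0.04, adjusted p = 0.33 with edgeR), and an exact permutation test gave p = 0.1, the smallest that 3 against 3 allows. Per2, a repressor whose mutation shortens and then abolishes rhythms in mice, was at 1.51, 1.37 and 1.54 CPM in Cre- and at 2.62, 1.54 and 2.29 CPM in Cre+ cultures. Cre+ replicates 1 and 3 stood above all Cre- cultures, and replicate 2 stood at the top of the Cre- range. The log2 fold change of Per2 was 0.55 (SE 0.23, 95% interval 0.06 to 1.03), with an unadjusted p of 0.029 and an adjusted p of 0.20. It was 0.74 without Cre+ replicate 2 and 0.38 without Cre+ replicate 1, with adjusted p of 0.096 and 0.49. Per3, whose loss leaves the loop running, was at 7.92, 6.97 and 6.19 CPM in Cre- and at 7.18, 7.10 and 6.58 CPM in Cre+ cultures. All Cre+ values of Per3 fell inside the Cre- range, with a log2 fold change of -0.02 (SE 0.13, 95% interval -0.29 to 0.26) whose sign turned when low genes were kept.

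As a share of the summed PER transcripts per length, Per1 took 40.9%, 38.1% and 40.9% in Cre- and 31.3%, 35.8% and 30.8% in Cre+ cultures. Per2 took 14.1%, 15.1% and 17.1% in Cre- and 25.7%, 16.8% and 25.2% in Cre+ cultures. The share of Per1 did not overlap between the groups, that of Per2 did through Cre+ replicate 2, and the sum of the 3 was 1.64 ± 0.166 FPKM in Cre- and 1.62 ± 0.105 FPKM in Cre+ cultures (SD, n = 3). These shares rest on the same counts as the values above and were not tested. The summed level of 8 markers of fibroblasts and mural cells was 1.85 to 2.83 CPM in Cre- and 0.972 to 1.23 CPM in Cre+ cultures. None of the 8 reached 1 CPM in any library or was tested. Of the 8, 5 were lower in Cre+ without overlap, against 24.0% of the genes tested, in either direction. The share among genes this low was not measured, and fewer genes had a count in Cre+ than in Cre- libraries, as given above. The summed markers of neurons (lower in Cre+) and of endothelial cells (higher in Cre+) did not overlap either, as given above. The sums of the astrocyte and oligodendrocyte lists overlapped. In each of these 2 lists, 3 of 8 markers were lower in Cre+ without overlap and 0 were higher. The endothelial sum was mostly Flt1 (22.6 CPM on average), the 1 gene of that list higher in Cre+ without overlap. Pecam1 of the same list was lower in Cre+ without overlap, and Kdr had a log2 fold change of -0.36 (adjusted p = 0.57 with edgeR). The part of these cell types in the values of Per1 and Per2 was not tested.

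**Figure D2:**
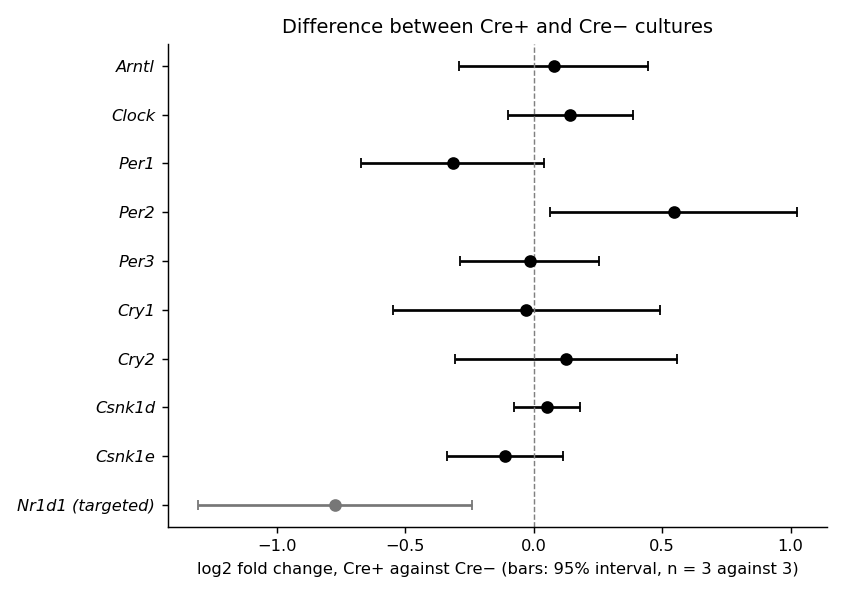
Log2 fold change of Cre+ against Cre- cultures for the 9 members tested and for the targeted Nr1d1, with 95% intervals from edgeR's fit (3 cultures against 3). The interval of Per2 lies above 0 and that of Nr1d1 below it before adjustment over all genes, and the intervals of the other 8 members include 0.

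The CRY genes encode the direct inhibitors of BMAL1 and CLOCK, and they had the widest spread within groups of the members tested. Cry1 was at 2.21, 1.32 and 2.34 CPM in Cre- and at 1.75, 1.61 and 2.38 CPM in Cre+ cultures. The Cre+ range lay almost wholly inside the Cre- range, and the log2 fold change was -0.03 (SE 0.24, 95% interval -0.55 to 0.49, adjusted p = 0.97 with edgeR). Between cultures Cry1 varied by 28.3% in Cre- and 21.4% in Cre+, against a counting error of 7.57% and 7.18%. Cry2 was at 3.16, 3.04 and 2.25 CPM in Cre- and at 2.35, 3.39 and 3.48 CPM in Cre+ cultures. In each group 1 culture of Cry2 was low, Cre- replicate 3 and Cre+ replicate 1, and the rest stood together above 3 CPM. The log2 fold change of Cry2 was 0.12 (SE 0.20, 95% interval -0.31 to 0.56, adjusted p = 0.81), a ratio between 0.808 and 1.47.

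The kinases were the best measured members. Csnk1d had 5330 to 7080 counts per library, at 63.9, 67.6 and 59.6 CPM in Cre- and at 64.6, 64.2 and 69.5 CPM in Cre+ cultures. The groups overlapped, and the log2 fold change of 0.05 (SE 0.06, 95% interval -0.08 to 0.18, adjusted p = 0.70 with edgeR) puts the ratio between 0.949 and 1.13, the narrowest interval of the loop. Of its exonic bases, 306 (5.74%) overlap Slc16a3 on the opposite strand, a gene with 2885 to 3331 counts per library, and whether the counting used strand is not given in the sources used here. Csnk1e was at 15.4, 12.6 and 16.5 CPM in Cre- and at 13.6, 14.2 and 13.4 CPM in Cre+ cultures. All Cre+ values of Csnk1e lay inside the Cre- range, with a log2 fold change of -0.11 (SE 0.11, 95% interval -0.34 to 0.12, adjusted p = 0.64).

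Per length, the kinases stood far above the rest of the loop. On the FPKM scale (CPM per kilobase of exon, from TMM-scaled libraries) Csnk1d averaged 12.2 over the 6 libraries, 5.61 times Csnk1e at 2.17, which was in turn 2.71 times Clock at 0.801. Each of these steps held in all 6 libraries without overlap. Below Clock followed Per3 at 0.728, Arntl at 0.615, Per1 at 0.592, Cry1 at 0.579, Cry2 at 0.466, Per2 at 0.309 and Npas2 at 0.220 FPKM. No neighbours in this lower part of the order were separated beyond their ranges, and the order of Arntl, Per1 and Cry1 was decided by less than the spread of any of them. Of the 9 members tested, 7 lay below the 20th percentile of all genes tested by FPKM, and Csnk1d lay at percentile 76.7. Clock was 2.54 to 4.80 times as high per length as Npas2 over the libraries. The summed repressors (PER and CRY) were 1.53 to 2.04 times the summed activators per length in Cre- and 1.45 to 1.76 times in Cre+ cultures, which overlap.

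**Figure D3:**
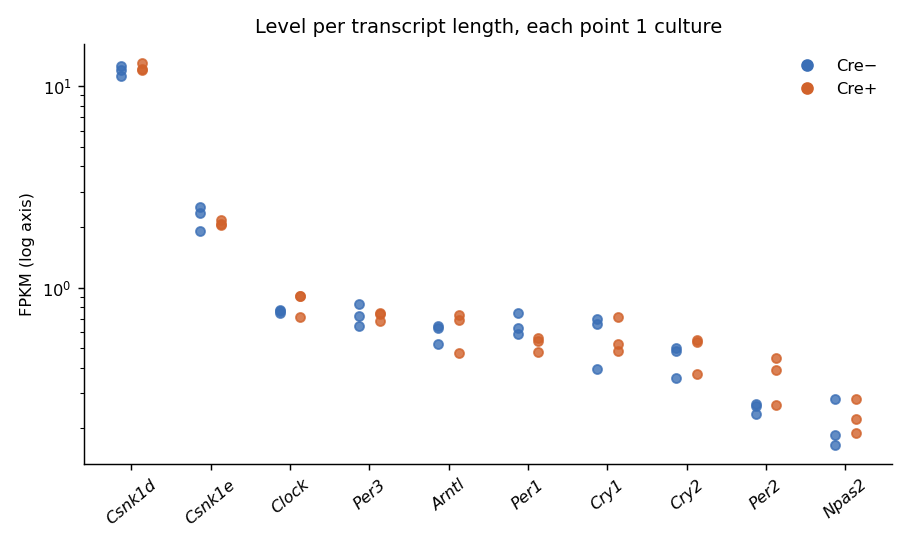
FPKM (log axis) of the 10 genes in order of their mean level, each point 1 culture, Cre- in blue and Cre+ in orange. Csnk1d and Csnk1e stand apart from the activators and repressors and from each other, and the other 8 overlap with their neighbours in a band between 0.165 and 0.906 FPKM.

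The spread between cultures differed among the members and did not follow their level alone. The SD of log2 CPM within groups lay at percentile 96.3 of all genes tested for Cry1, 91.3 for Cry2, 90.6 for Per2 and 88.5 for Arntl, at 64.3 for Per1, 63.6 for Csnk1e, 61.3 for Clock and 58.2 for Per3, and at percentile 28.1 for Csnk1d. Per1, though lower in CPM than Arntl, was the tighter of the pair. In 8 of the 9 members tested the SD was above that of the median gene. These percentiles rank against all genes tested, not against genes of like level. By CPM, Cry1, Cry2, Per2 and Arntl lay at percentiles 9.38, 16.3, 8.32 and 24.5. Whether their spread differs from that of genes at such levels was not tested. Across the 9, the 95% intervals ran from a ratio of 0.628 at the lowest (Per1) to 2.04 at the highest (Per2). The size of change that this design would call was not measured.

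**Figure D4:**
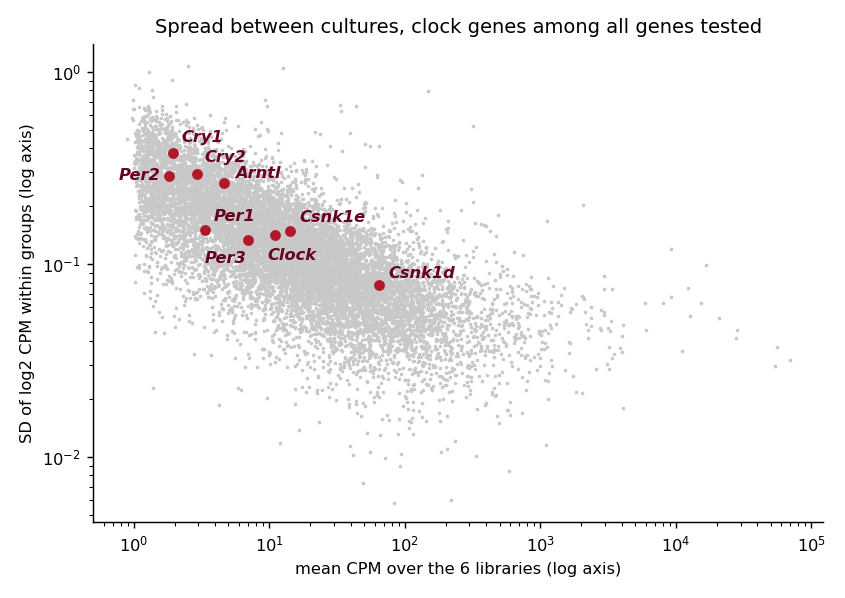
SD of log2 CPM within groups against the mean CPM over the 6 libraries (both axes log), with each gene tested in grey and the 9 members in red. Cry1, Cry2, Per2 and Arntl have the larger SDs of the 9, and Csnk1d, at the highest CPM, the smallest.

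No library was the lowest or the highest of its group in all 10 members. Cre+ replicate 2 and Cre- replicate 2 were each the lowest of their group in 5 of the 10 members and the highest in 3. Cre+ replicate 2 was at 0.75 of its group's mean in Arntl, 0.85 in Clock and 0.71 in Per2, but at 1.21 in Npas2 and 1.10 in Cry2. Cre- replicate 2 was at 0.68 in Cry1, 0.79 in Npas2 and 0.85 in Csnk1e, but at 1.08 in Arntl and Cry2. Cre+ replicate 2 is the library with the fewest counts of its group, 93701215, which is within the range of the Cre- libraries. Without it the log2 fold change was 0.25 for Arntl and 0.25 for Clock, with adjusted p of 0.49 and 0.26. Among Cre- cultures, replicate 1 had the lowest Arntl (0.87 of the mean) and the highest Per1 (1.14), Per3 (1.13) and Nr1d1 (1.36). With 3 cultures a group, these positions are a description and were not tested.

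**Figure D5:**
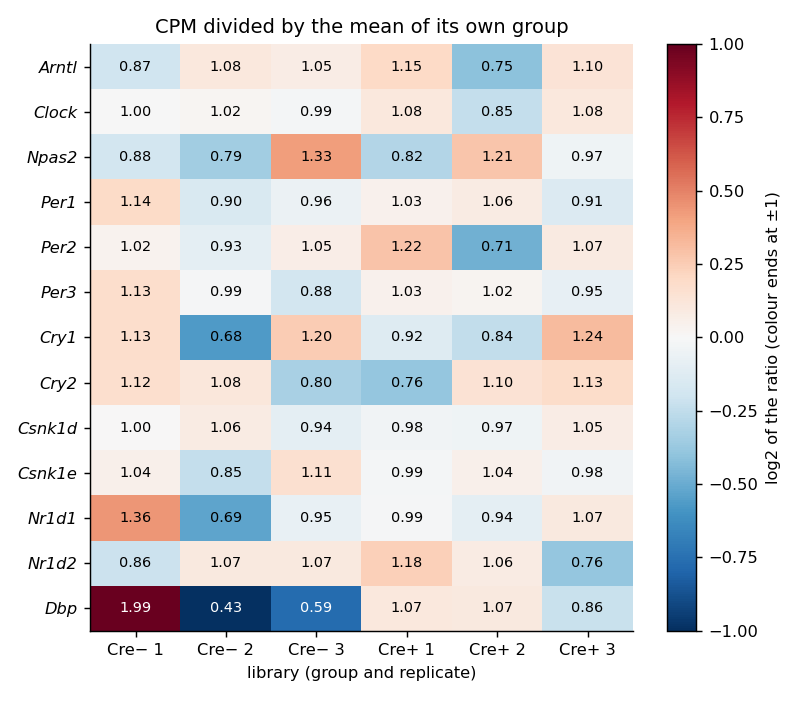
CPM of each gene in each library divided by the mean of its own group, for the 10 members and for Nr1d1, Nr1d2 and Dbp, with red above and blue below the mean. Cre+ replicate 2 is low in Arntl, Clock and Per2 and high in Npas2, Cre- replicate 2 is low in Cry1 and Npas2, and Cre- replicate 1 stands at 1.99 times its group's mean in Dbp.

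Of 17 genes of the stabilizing loop and of clock output, 12 were tested and 0 passed in edgeR, with 1 at an unadjusted p of 0.05, the targeted Nr1d1, and a median log2 fold change of -0.07. Nr1d2, the paralog that also represses Arntl, was at 4.27, 5.29 and 5.30 CPM in Cre- and at 6.67, 5.97 and 4.32 CPM in Cre+ cultures, which overlap (log2 fold change 0.19, SE 0.17, adjusted p = 0.59). Nfil3, the D-box repressor, was at 1.26, 1.37 and 1.81 CPM against 0.967, 1.24 and 1.55 CPM (log2 fold change -0.25, SE 0.24, adjusted p = 0.63). Dbp, an output gene driven by E-boxes, was below the filter. Its counts were 224, 51 and 68 in Cre- and 71, 60 and 52 in Cre+ cultures, so that Cre- replicate 1 stood apart and the other 5 libraries lay together. Dbp shares 541 identical bases with transcripts of Sphk2, which averaged 4380 counts, and whether reads were split between them was not tested.

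Of 20 genes whose products modify PER or CRY, by phosphorylation or through their degradation, 18 were tested. Of the 18, 2 passed, both higher in Cre+ (11.1%, against 5.07% of all genes called and 2.50% called higher). Csnk2a1 encodes a catalytic subunit of casein kinase 2. It was at 58.4, 62.5 and 70.8 CPM in Cre- and at 71.1, 78.4 and 84.1 CPM in Cre+ cultures. The groups did not overlap, but Cre- replicate 3 was close to Cre+ replicate 1. Csnk2a1 rose by 0.29 on the log2 scale (SE 0.07, adjusted p = 0.0374 with edgeR). It is 99.6% identical over 2655 bases to Gm10031, a gene with a mean of 157 counts. Gsk3b, a kinase known to act on several clock proteins, was at 131, 130 and 134 CPM in Cre- and at 150, 142 and 166 CPM in Cre+ cultures, and rose by 0.21 (SE 0.06, adjusted p = 0.0394). Neither call was stable: leaving out 1 library kept Csnk2a1 past the threshold in 2 of 6 fits and Gsk3b in 1 of 6. Csnk2a1 was lost without Cre- replicate 1 (adjusted p = 0.139), Cre- replicate 2 (0.108), Cre+ replicate 2 (0.106) or Cre+ replicate 3 (0.171). Gsk3b held only without Cre+ replicate 2, and ranged from an adjusted p of 0.0229 to 0.167 over the 6 fits. The median log2 fold change of the 18 was 0.01.

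All 14 co-regulators of the loop were tested, with a median log2 fold change of 0.05. The corepressor Ncor1 and the deacetylase Hdac3, which work with REV-ERBα at its targets, had log2 fold changes of 0.15 (adjusted p = 0.23 with edgeR) and -0.06 (adjusted p = 0.67). Over these 3 lists 3 of 44 genes tested passed, 6.82%, near the 5.07% of all genes.

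Immediate-early genes were read beside Per1 and Per2, which are induced by some of the same signals. Of 12, 9 were tested and 2 passed, both lower in Cre+ (22.2%, against 5.07% of all genes called and 2.56% called lower). Junb, a subunit of AP-1, was at 69.1, 80.6 and 78.0 CPM in Cre- and at 48.5, 60.6 and 45.0 CPM in Cre+ cultures, a fall of 0.56 on the log2 scale (SE 0.09, adjusted p = 0.0016 with edgeR). Ier2 was at 33.3, 35.1 and 32.3 CPM in Cre- and at 26.2, 27.5 and 24.0 CPM in Cre+ cultures, a fall of 0.37 (SE 0.07, adjusted p = 0.0072). Neither overlapped between the groups, and both passed in each of the 6 fits without 1 library. Nr4a1 had the largest estimate of the list, a log2 fold change of -0.87 (SE 0.34, unadjusted p = 0.022, adjusted p = 0.17), and its groups overlapped. Fos and Egr2, induced by many of the same stimuli, had log2 fold changes of 0.02 and 0.07 (adjusted p = 0.92 and 0.58), and the median of the 9 was -0.04. The summed markers of fibroblasts and mural cells and of neurons were lower in Cre+ without overlap, as given above. So were 3 single markers in each of the astrocyte and oligodendrocyte lists. The endothelial sum was higher in Cre+ without overlap, mostly through Flt1. The part of these cell types in Junb and Ier2 was not tested.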

How the data were processed

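RNA of 3 Cre- and 3 Cre+ microglia cultures, prepared with a SMARTer kit, was sequenced by the authors. The counts were deposited as whole reads per Ensembl gene, made by the authors with STAR and featureCounts on GRCm38. The submitters' processing notes name STAR 2.7.9a and featureCounts 2.0.3, and the methods name other versions and Ensembl release 76. The CPM and FPKM values were deposited by the authors as counts per library total and per length. They were read only to check units, and every value reported was computed from the counts. The labels give 2 days of 4-OHT and the methods 24 h. Columns of other samples numbered 0.

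Genes of ribosomal RNA biotype (356, from GENCODE M21) were left out, and the study's filter, over 1 CPM in 4 or more libraries, left 11429 genes to test. The test was edgeR 4.0.16 (quasi-likelihood, TMM, no covariates, R 4.3.3) with Benjamini-Hochberg adjustment at 0.05. Tests of single genes were exact permutation tests, two-sided, with SciPy 1.17.1. The study's own test, limma's voomWithQualityWeights (3.58.1), and DESeq2 1.42.0 were alternatives, beside other scalings, filters and a replicate block. Fits without 1 library kept the genes of the full fit, a choice made after seeing the data. The procedure was checked on simulated counts that gave every gene the same spread. That spread was lower than the biological coefficient of variation in edgeR of Cry1 (19.8%), Per2 (18.1%), Cry2 (16.7%), Arntl (14.5%), Per1 (13.7%) and Per3 (10.9%). The check therefore does not cover genes as variable as those. Identity between transcripts came from blastn 2.17.0.

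All 10 members were named, with Nr1d1, Nr1d2, Dbp and Nfil3, and of each further list up to 3 called genes with the smallest p, or the 1 with the smallest p where none was called. Of each marker list the most abundant gene was to be named, which were Trem2 (1615 CPM), Aldoc of astrocytes (32.2), Cspg4 of the oligodendrocyte lineage (46.0), Snap25 of neurons (0.97), Acta2 of fibroblasts and mural cells (0.476) and Flt1 of endothelial cells (22.6). Ncor1, Hdac3, Fos, Egr2, Nr4a1, Itgam, P2ry12, Sall1, Siglech, Aldh1l1, Pecam1, Kdr, Slc16a3, Sphk2, Gm10031 and Thra were added after their values were seen. The result of 1 gene that this rule selects is not reported here. The members and lists were chosen with earlier results of these data known.

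The common biological coefficient of variation was 10.0%. The labels number the cultures, but deviations of same-numbered cultures correlated at 0.0144, -0.0205 and -0.0445, so the numbers were not taken to pair them. The labels do not say that cultures came from separate animals, so p-values measure the spread between these samples, which may be technical. Pairs of libraries differed by 11.5 to 15.6 times counting noise (chi-square per degree of freedom) within groups and by 29.6 to 47.7 times between them, and no pair agreed within it. This does not show whether libraries came from separate cultures.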

Additional observations from a re-analysis of the deposited data

How the results depend on the processing

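The count of members called was 0 under every alternative run, including an adjusted p of at most 0.1, DESeq2, limma's voom and voomWithQualityWeights, the 3 other filters, and the 6 fits without 1 library. The smallest adjusted p of a member over these was 0.096, for Per2 without Cre+ replicate 2. At an unadjusted p of 0.05, 0 to 2 members passed across the alternatives. With the replicate number as a block 430 genes and 0 members were called, and of the named calls Gsk3b alone was lost (adjusted p = 0.0526). Over all genes, 579 calls became 886 with DESeq2, 1528 without a filter, 935 at an adjusted p of at most 0.1, and 317 to 448 without 1 library. The 3 calls among the further clock genes became 6 without a filter and 5 at an adjusted p of at most 0.1, and 1 to 2 without 1 library. Members with a log2 fold change near 0 turned sign: Per3 to 0.028 under filterByExpr and 0.065 without a filter, and Cry1 to 0.0087 with voomWithQualityWeights, 0.00017 with voom, 0.017 under filterByExpr and 0.055 without a filter. Keeping low genes moved the median log2 fold change of the 11429 genes to 0.08 without a filter and 0.05 under filterByExpr. Without 1 library Arntl ran from -0.035 to 0.25, Per3 from -0.10 to 0.071, Cry1 from -0.25 to 0.12 and Cry2 from -0.016 to 0.29, and the cause was not tested. Clock, Per1, Per2, Csnk1d and Csnk1e kept their direction in all 16 alternatives. In Nr1d1 the call was gained without Cre- replicate 2 (-0.98, adjusted p = 0.0414) and its log2 fold change was -0.98 to -0.50 over the alternatives. With 3 cultures a group, an exact test cannot go below 0.1. The 95% interval of Cry1 ran from 0.684 to 1.41 as a ratio, and the size of change that would be called was not measured. All values come from 1 harvest of unstated clock phase.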
